A study of Oryctolagus cuniculus with 6 samples.

Results

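The circadian clock genes of primary rabbit limbal stem cells (LSCs) were examined as 10 genes among the 22190 genes of the deposited count table. They are the core clock and output genes PER1, PER2, PER3, CRY1, CRY2, CLOCK, NR1D1, NR1D2, DBP and TEF, and they were chosen by name. Of these, 9 were found under their symbols. DBP was found through its NCBI gene identifier, 127486976, whose row is called LOC127486976 and is described as D site-binding protein. RNA-seq was performed on LSCs that grew out of pieces of limbus. The fresh group had 3 libraries, from rabbit corneas that were not frozen, and the preconditioned group had 3. Corneas of the preconditioned group were kept frozen in liquid nitrogen for a week in a cryomedium with serum, DMSO and IL-1β, an inflammatory cytokine, before explants were taken. Explants were cultured in keratinocyte medium. The preconditioned group differed from the fresh group by freezing together with the cytokine, and the parts of the pair cannot be told apart. The strain, age and sex of the rabbits, the animal behind each library, the days in culture and the hour at which cells were collected are not given in the sources used here. A difference between the groups in any of these could not be told apart from the treatment. The p-values therefore measure only the spread between these libraries.

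The mammalian clock is a loop of transcription factors that runs in nearly every cell, the corneal epithelium included. CLOCK, or its relative NPAS2, pairs with BMAL1 and switches on the PER and CRY genes through E-box elements, and PER and CRY proteins then block that pair. The same pair drives NR1D1 and NR1D2 (REV-ERB alpha and beta), which repress BMAL1 and NPAS2 in competition with the ROR receptors, and drives the output factors DBP and TEF, which act through D-box elements. Levels of these messengers rise and fall over the day, with those of NR1D1 and DBP swinging widely and that of CLOCK little. Each library is a single time point, so that neither phase nor amplitude can be read from it.

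The libraries held 31952352 to 34327534 counts on genes. Preconditioned replicate 1 lay between the groups on the first principal component of log2 expression (50.4% of the variance), at 8.13, against −53.1 to −41.1 in the fresh group and 58.3 and 70.4 in the other preconditioned libraries. The epithelial label was checked with KRT5, the basal epithelial keratin, which had 7337 to 11740 CPM (counts scaled to the TMM-corrected size of the library) over the 6 libraries, and with TP63, which had 226 to 246 CPM in the fresh libraries and 112 to 183 CPM in the preconditioned libraries (edgeR adjusted p = 0.0588). KRT15, a marker of limbal progenitors, had only 0.988 to 9.71 CPM. EPCAM, an adhesion protein of epithelia, had 77.5 to 91.8 CPM in the fresh libraries and 102 to 126 CPM in the preconditioned libraries (edgeR adjusted p = 0.0601), and PAX6, the eye regulator, 174 to 218 and 203 to 459 CPM (edgeR adjusted p = 0.112). For marker lists, the level is the summed CPM of the list. The sum over 7 markers of limbal and corneal epithelium was 9758 to 13490 CPM in fresh LSCs and 9167 to 13500 CPM in preconditioned LSCs, most of it KRT5 in every library. KRT3, the differentiation marker of the paper, had 409 to 2655 CPM in the fresh libraries and 239 to 801 CPM in the preconditioned libraries (log2 fold change −1.21, edgeR adjusted p = 0.296). CDH1 had 427 to 591 and 436 to 513 CPM, and no row was matched for KRT14 and KRT12. The sum over 9 markers of stromal fibroblasts was 289.7 to 720 CPM in fresh LSCs and 849 to 1587 CPM in preconditioned LSCs, and of these 9 only COL1A1 was differentially expressed by the test given below. Without COL1A1 the sum was 233 to 611 CPM and 344 to 895 CPM, which overlapped, and 4 of the other 8 had fitted log2 fold changes below 0. The sum over 5 proliferation markers was 419 to 599 CPM in fresh LSCs and 141 to 385 CPM in preconditioned LSCs. None of the 5 was differentially expressed by edgeR, whereas MKI67, TOP2A and CCNB1 had unadjusted p values of 0.014 to 0.0226. Of 4 immune markers, CD68 made up nearly all of a sum of 95.5 to 132 CPM in fresh LSCs and 122 to 307 CPM in preconditioned LSCs, and PTPRC had at most 1.5 CPM in any library. The sum over 3 endothelial markers was 2.60 to 2.99 CPM and 1.03 to 13 CPM. Of 4 melanocyte markers, 3 had at most 3 counts in every library. The sum over 5 conjunctival markers was 2656 to 4693 CPM in fresh LSCs and 1911 to 4665 CPM in preconditioned LSCs. KRT19 and KRT7 made up nearly all of it. KRT4 had 1.55 to 44.2 CPM and KRT13 3.92 to 61.1 CPM, both highest in preconditioned replicate 1, and MUC5AC had at most 2 counts in any library. COL1A1 and the proliferation sum thus moved with the groups, and their part in the results below was not tested. In bulk samples, fewer cells of a type and less RNA per cell cannot be told apart.

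Of the 10 clock genes, NR1D1 and DBP were higher in the preconditioned group and passed the cutoffs used for differential expression, namely an adjusted p no higher than 0.05 (edgeR, quasi-likelihood test, Benjamini-Hochberg adjustment over all 15029 tested genes) and a log2 fold change of 1 or more in either direction. At these cutoffs 2.29% of all tested genes were called, 1.08% as higher and 1.2% as lower. NR1D2 passed on the adjusted p, with a smaller change. The mean of PER1 was higher and that of PER2 lower, and neither passed the edgeR test, while DESeq2 gave PER1 an adjusted p of 0.05, at the cutoff. CRY1, CRY2, CLOCK and TEF had adjusted p values of 0.319 to 0.958, and PER3 was close to absent. Over the 9 genes that could be tested, 2 were called as higher and none as lower by edgeR, and DESeq2 also called 2, where it called 7.78% of all genes it tested. At an unadjusted p up to 0.05, edgeR had 4 of the 9 as higher and 1 as lower, against 30.6% of all tested genes. The groups did not overlap for 3 that were higher and 1 that was lower, against 17.9% and 18.8% of all tested genes. The median log2 fold change of the 9 was 0.12, the value of CLOCK, against 0.01 over all tested genes. With library size alone CLOCK had −0.046, against −0.161 over all tested genes. Their median absolute log2 fold change was 0.63, against 0.37 over all tested genes. The fitted log2 fold change was above 0 for 5 of the 9 and below 0 for 4, beside 7595 above and 7434 below over all tested genes.

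**Figure D1:**
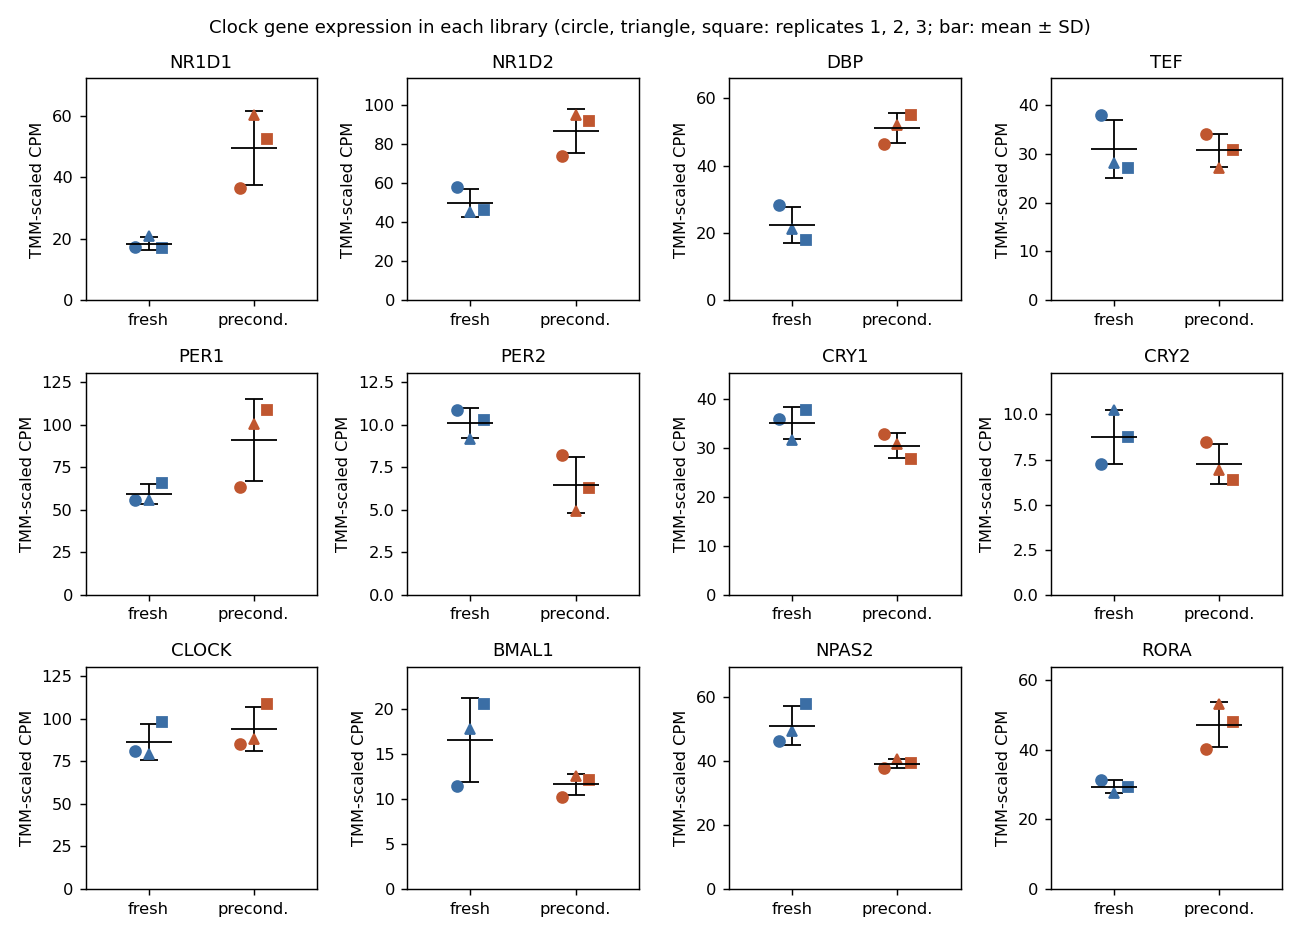
Expression of 9 clock genes and of their partners BMAL1, NPAS2 and RORA, as TMM-scaled CPM on axes that start at 0, in the 3 fresh (blue) and 3 preconditioned (orange) libraries, with bars for the mean ± SD. The groups are apart for NR1D1, NR1D2, DBP and RORA, which are higher in the preconditioned group, and for PER2 and NPAS2, which are lower.

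NR1D1, the heme-binding nuclear receptor that represses BMAL1, had the largest log2 fold change of the 9 tested genes. Its level was 17.5, 20.9 and 17.1 CPM in fresh replicates 1 to 3 and 36.4, 60.1 and 52.4 CPM in preconditioned replicates 1 to 3. Every preconditioned library lay above every fresh library, with preconditioned replicate 1 the lowest of its group. The mean went from 18.5 ± 2.08 to 49.7 ± 12.1 CPM (SD, n = 3 each), a 2.69-fold difference (log2 fold change 1.43, standard error 0.20, edgeR adjusted p = 0.0306). NR1D1 ranked 87 by p among all tested genes. Without preconditioned replicate 1 its log2 fold change was 1.6 (edgeR adjusted p = 0.00359). In that fit 25.2% of all tested genes passed on the adjusted p. When any of the other 5 libraries was left out, the log2 fold change was 1.27 to 1.52 and the edgeR adjusted p was 0.0744 to 0.109, above the cutoff.

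NR1D2, the paralog of NR1D1 with the same role in the loop, was also higher. It had 58.1, 45.1 and 46.4 CPM in the fresh libraries and 73.7, 94.7 and 92.0 CPM in the preconditioned libraries. The groups did not overlap, and preconditioned replicate 1 was again the nearest to the fresh group. The mean of NR1D2 rose from 49.9 ± 7.19 to 86.8 ± 11.4 CPM (SD, n = 3 each), by 1.74-fold (log2 fold change 0.80, standard error 0.15, edgeR adjusted p = 0.0393), which is under the fold change cutoff. By adjusted p alone, 2.88% of all tested genes were higher, and 3 of the 9 tested clock genes were. The adjusted p of NR1D2 was 0.094 to 0.149 when a library other than preconditioned replicate 1 was left out, and 0.0521 and 0.0513 with limma on FPKM.

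DBP, a PAR bZIP activator that is among the most strongly cycling clock outputs in many tissues, was the other gene past both cutoffs. It had 28.3, 21.1 and 17.9 CPM in fresh replicates 1 to 3 and 46.4, 52.2 and 54.9 CPM in preconditioned replicates 1 to 3. The lowest preconditioned library lay well above the highest fresh library, and the spread was smaller in the preconditioned group than for NR1D1. The mean was 22.4 ± 5.36 and 51.2 ± 4.33 CPM (SD, n = 3 each), a 2.28-fold difference (log2 fold change 1.19, standard error 0.19, edgeR adjusted p = 0.0318). Its log2 fold change was 1.25 without preconditioned replicate 1 (edgeR adjusted p = 0.00879), where 25.2% of all tested genes passed on the adjusted p. Without any other library it was 1.05 to 1.39 (edgeR adjusted p = 0.0705 to 0.134). TEF, a PAR bZIP factor of the same family, had 37.8, 28.2 and 27.0 CPM in the fresh libraries and 34, 27.1 and 30.8 CPM in the preconditioned libraries. These ranges overlapped almost entirely, and the log2 fold change was −0.02 (standard error 0.17, edgeR adjusted p = 0.958). Whether DBP and TEF differ in their response was not tested.

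PER1 and PER2, which encode repressors that act in complexes with CRY proteins, differed in the direction of their means. PER1 had 55.5, 55.7 and 65.8 CPM in the fresh libraries and 63.6, 101 and 109 CPM in the preconditioned libraries. Preconditioned replicate 1 lay within the fresh range, and the other 2 preconditioned libraries lay far above it. The log2 fold change of PER1 was 0.63 (standard error 0.21, edgeR adjusted p = 0.0976). Without preconditioned replicate 1 it was 0.82 (edgeR adjusted p = 0.00712), in a fit in which 25.2% of all tested genes passed on the adjusted p, and without any other library it was 0.48 to 0.71 (edgeR adjusted p = 0.156 to 0.262). PER2 had 10.9, 9.14 and 10.3 CPM in the fresh libraries and 8.22, 4.92 and 6.26 CPM in the preconditioned libraries. All preconditioned libraries lay below all fresh libraries, and preconditioned replicate 1 was once more the nearest to the fresh group. The log2 fold change of PER2 was −0.65 (standard error 0.24, edgeR adjusted p = 0.125), and −0.87 without preconditioned replicate 1 (edgeR adjusted p = 0.0297). Without any other library it was −0.72 to −0.48 (edgeR adjusted p = 0.232 to 0.31).

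PER3 was hardly detected. It had 0, 3 and 4 counts in the fresh libraries and 1, 0 and 0 counts in the preconditioned libraries, and did not pass the filter on low counts. A count of 0 allows up to 3 counts, which is 0.082 to 0.0988 CPM in these libraries, by counting error alone. A difference between groups was not detectable at this level.

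CRY1 and CRY2 encode the partners of the PER proteins and the stronger repressors of the CLOCK and BMAL1 pair, and their groups overlapped. CRY1 had 35.9, 31.6 and 37.9 CPM in the fresh libraries and 32.8, 30.9 and 27.7 CPM in the preconditioned libraries (log2 fold change −0.20, standard error 0.13, edgeR adjusted p = 0.319). CRY2 had 7.25, 10.3 and 8.72 CPM against 8.46, 6.94 and 6.36 CPM (log2 fold change −0.27, standard error 0.22, edgeR adjusted p = 0.441). CLOCK, the DNA-binding activator, had 81.2, 79.3 and 98.2 CPM in the fresh libraries and 85.2, 87.9 and 109 CPM in the preconditioned libraries, with overlapping groups (log2 fold change 0.12, standard error 0.14, edgeR adjusted p = 0.586). In a rabbit annotation (RefSeq, assembly mOryCun1.1), CLOCK overlaps the gene PDCL2, and CRY2 and PER3 each overlap a pseudogene, so that without a stated strand setting some of their reads could be shared.

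Preconditioned replicate 1 was the preconditioned library nearest to the fresh mean for all 5 tested clock genes whose log2 fold change was 0.5 or more in either direction, and for 8 of the 9 tested genes, TEF being the exception. Over all tested genes it was the nearest for 52.2%, and for 64.4% of those with a log2 fold change of that size. Among the 9 tested other core clock genes described below it was the nearest for 2, RORA and HLF.

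Within each library, the ratio of a pair of clock genes does not depend on the scaling of the library. The log2 ratio of DBP to CLOCK was −1.52, −1.91 and −2.46 in the fresh libraries and −0.88, −0.75 and −0.98 in the preconditioned libraries, a difference of 1.09 between the group means. The log2 ratio of NR1D1 to CLOCK was −2.22, −1.93 and −2.52 in the fresh libraries and −1.23, −0.55 and −1.05 in the preconditioned libraries, a difference of 1.28. The groups did not overlap for either ratio. The log2 ratio of PER1 to PER2 was 2.35, 2.61 and 2.67 in the fresh libraries and 2.95, 4.35 and 4.12 in the preconditioned libraries, a difference of 1.27, again without overlap. For these 3 ratios the exact, 2-sided permutation p was 0.1, the smallest that 3 libraries against 3 allow. The log2 ratio of CRY1 to CRY2 was 2.02 ± 0.354 (fresh) and 2.08 ± 0.107 (preconditioned) (SD, n = 3 each, exact, 2-sided permutation p = 0.8). In all, 4 ratios were computed, and none could pass 0.05 in this design. Since each ratio also holds the lengths of its genes, its level says nothing of which gene is more abundant.

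**Figure D2:**
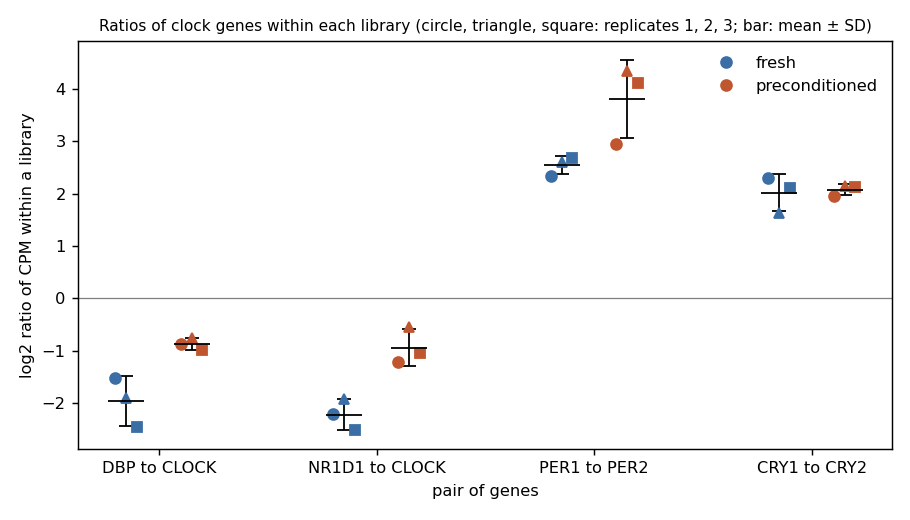
Log2 ratio of CPM between pairs of clock genes within each of the 3 fresh (blue) and 3 preconditioned (orange) libraries, with bars for the mean ± SD. DBP and NR1D1 are higher relative to CLOCK, and PER1 relative to PER2, in all preconditioned libraries, whereas the ratio of CRY1 to CRY2 overlaps between the groups.

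Levels were compared between genes on the authors' FPKM values, which divide by gene length. In the fresh group CRY1 was highest at 15.6 ± 1.44 FPKM, followed by DBP at 15.5 ± 3.64, PER1 at 12.7 ± 1.33, NR1D2 at 10.5 ± 1.46, CLOCK at 9.58 ± 1.2, TEF at 7.93 ± 1.47, NR1D1 at 5.27 ± 0.592, CRY2 at 2.43 ± 0.424, PER2 at 2.06 ± 0.178 and PER3 at 0.0192 ± 0.0171 FPKM (SD, n = 3 each). Neighbours from CRY1 down to TEF overlapped in range, as did CRY2 and PER2. NR1D1 was apart from both its neighbours. In the preconditioned group DBP was highest at 31.5 ± 2.45 FPKM, apart from the next gene, PER1, at 17.4 ± 4.41 FPKM (SD, n = 3 each). NR1D2 at 16.2 ± 1.81, NR1D1 at 12.5 ± 2.76 and CRY1 at 12.1 ± 1.13 FPKM followed (SD, n = 3 each), and each of these overlapped with its neighbours up to PER1. Below them stood CLOCK at 9.28 ± 1.34, TEF at 6.99 ± 0.971, CRY2 at 1.79 ± 0.300, PER2 at 1.17 ± 0.330 and PER3 at 0.00274 ± 0.00475 FPKM (SD, n = 3 each), none overlapping with the gene above it. DBP lay above 70.2% of tested genes in the fresh group and above 84.9% in the preconditioned group. NR1D1 lay above 48.3% and 69% of tested genes, and PER2 above 32.7% and 27.7%.

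**Figure D3:**
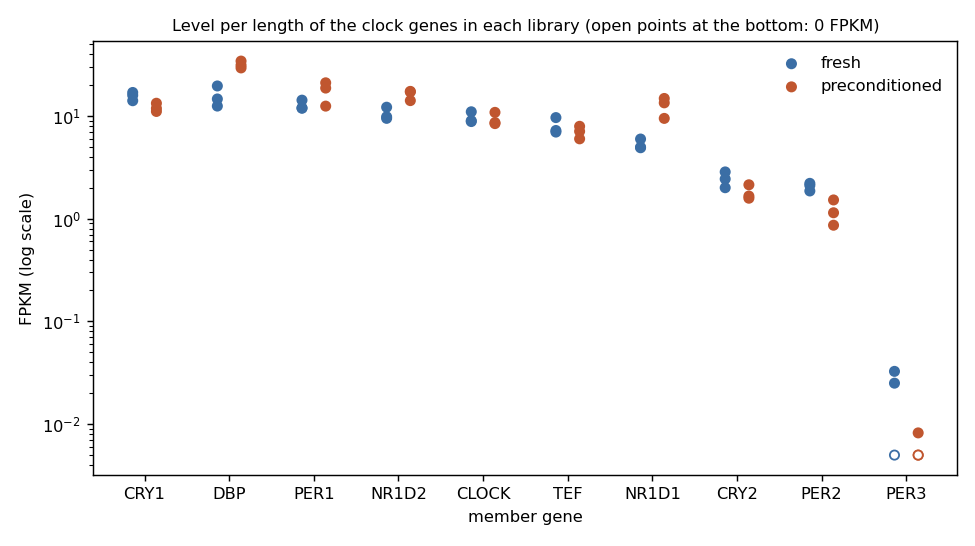
FPKM of the 10 clock genes in each library on a log axis, ordered by the mean of the fresh group, with fresh libraries in blue, preconditioned libraries in orange and open points for 0 FPKM. DBP and NR1D1 stand higher in the preconditioned libraries and PER2 lower, and PER3 lies far under all other genes.

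The other core clock genes were a list of 10, of which 9 were tested. None passed both cutoffs with edgeR or with DESeq2, while 5 of 9 had unadjusted p values up to 0.05 by edgeR, against 30.6% of all tested genes. The median log2 fold change of the 9 was 0.06, the value of BMAL2, against 0.01 over all tested genes. With library size alone the value of BMAL2 was −0.11, against −0.161 over all tested genes. BMAL1, the partner of CLOCK and the main target of NR1D1, had 11.4, 17.7 and 20.5 CPM in the fresh libraries and 10.3, 12.5 and 12.1 CPM in the preconditioned libraries. Fresh replicate 1 lay inside the preconditioned range and the other fresh libraries above it (log2 fold change −0.51, standard error 0.24, edgeR adjusted p = 0.196). Without fresh replicate 3 the log2 fold change of BMAL1 was −0.33. NPAS2, which can stand in for CLOCK, had 46.2, 49.2 and 57.8 CPM against 37.7, 40.5 and 39.3 CPM, with no overlap between the groups (log2 fold change −0.38, standard error 0.12, edgeR adjusted p = 0.092). BMAL2, the paralog of BMAL1, was the more abundant of the pair, with 17.4 FPKM in the fresh group against 5.49 FPKM for BMAL1, and its log2 fold change was 0.06 (standard error 0.20, edgeR adjusted p = 0.871).

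RORA, which activates BMAL1 through the elements that NR1D1 and NR1D2 occupy, was the only gene of this list to pass on the adjusted p with edgeR as used throughout. It had 31.3, 27.7 and 29.2 CPM in the fresh libraries and 40.3, 53.2 and 48.1 CPM in the preconditioned libraries. The groups were apart (log2 fold change 0.68, standard error 0.14, edgeR adjusted p = 0.0432), and the adjusted p was 0.0998 to 0.161 when a library other than preconditioned replicate 1 was left out. It was 0.0534 for RORA with library size alone, where NPAS2 passed (edgeR adjusted p = 0.0432), and 0.0671 and 0.0679 with limma on FPKM. RORB had at most 5 counts in any library and was not tested. The repressors BHLHE41, BHLHE40 and CIART had higher means in the preconditioned group without passing the edgeR test. With DESeq2, BHLHE41 and BHLHE40 passed on the adjusted p (0.00481 and 0.0258). The share of all genes that passed DESeq2 on the adjusted p alone is not given here, and 7.78% passed both cutoffs. BHLHE41 (DEC2) had 48.8, 62.8 and 75.5 CPM in the fresh libraries and 113, 159 and 91.4 CPM in the preconditioned libraries (log2 fold change 0.96, standard error 0.24, edgeR adjusted p = 0.0593). For BHLHE40 (DEC1) the log2 fold change was 0.68 (standard error 0.20, edgeR adjusted p = 0.0803), and CIART, which interferes with the CLOCK and BMAL1 pair, it was 0.60 (standard error 0.22, edgeR adjusted p = 0.122). The groups did not overlap for these 3 repressors, as for 17.9% of all tested genes in this direction. HLF, the third PAR bZIP factor, and NFIL3, which represses D-box elements, had log2 fold changes of −0.27 and −0.26 (standard errors 0.37 and 0.16, edgeR adjusted p = 0.655 and 0.303).

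**Figure D4:**
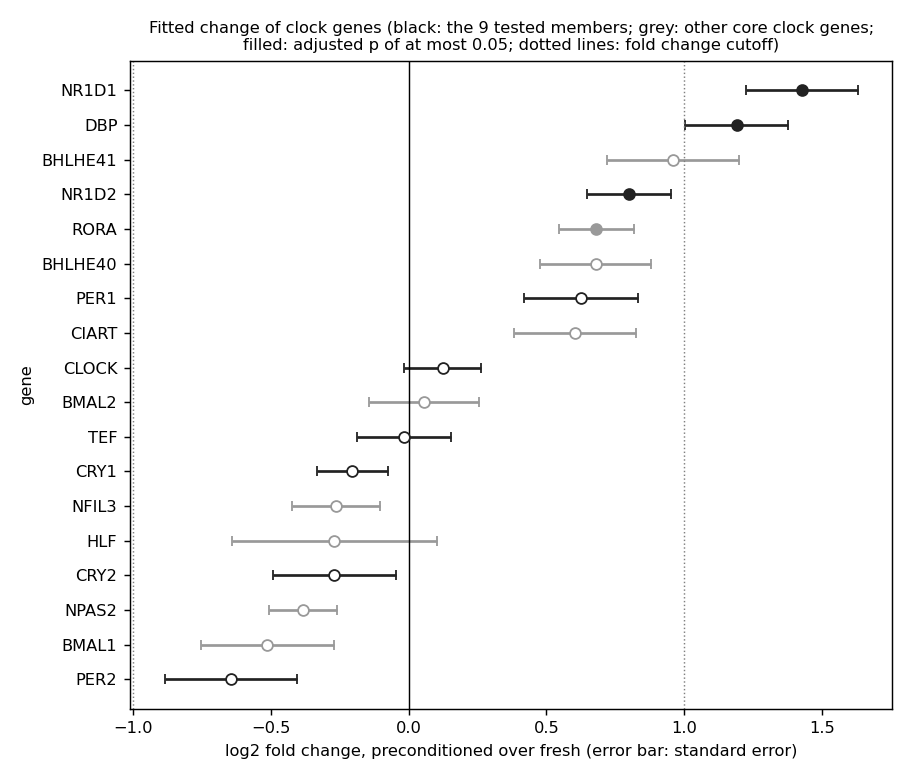
Log2 fold change, preconditioned over fresh, with its standard error, for the 9 tested clock genes (black) and the 9 tested other core clock genes (grey), where filled points passed on the adjusted p. NR1D1 at 1.43 and DBP at 1.19 lie past the dotted cutoff of 1, and PER2 at −0.65 and BMAL1 at −0.51 lie lowest.

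The kinases, phosphatases and ubiquitin ligases that set the lifetime of clock proteins were a list of 11, of which 10 were matched to a row and tested. None passed both cutoffs with edgeR or DESeq2, and 5 of 10 had unadjusted p values up to 0.05 by edgeR, against 30.6% of all tested genes. HUWE1, a large ubiquitin ligase that acts on NR1D1 among many other proteins, passed on the adjusted p and fell from 275 ± 29.4 to 167 ± 4.58 CPM (SD, n = 3 each, log2 fold change −0.72, standard error 0.11, edgeR adjusted p = 0.0322). Its edgeR adjusted p was 0.0786 to 0.137 when a library other than preconditioned replicate 1 was left out. By adjusted p alone, 2.2% of all tested genes were lower. PPP1CB, a phosphatase subunit, FBXW11, a ubiquitin ligase subunit that acts on PER proteins, and CSNK2A1, a kinase of clock proteins, had log2 fold changes of 0.49, 0.39 and 0.30 (edgeR adjusted p = 0.0859, 0.0832 and 0.151). Over 14 alternatives their lowest values were 0.31, 0.22 and 0.13. PPP1CB passed on the adjusted p in 2 of the 14, FBXW11 in 1 and CSNK2A1 in 0.

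Known targets of the clock in other tissues were examined as 9 genes, all tested, which also answer to many other signals. CDKN1A, the cell cycle inhibitor p21, which NR1D1 is known to repress in liver, rose from 1043 ± 124 to 2354 ± 683 CPM (SD, n = 3 each, log2 fold change 1.18, standard error 0.22, edgeR adjusted p = 0.0393). It was the only one of the 9 past both cutoffs, against 2.29% of all tested genes, and 2 of the 9 had unadjusted p values up to 0.05 by edgeR, against 30.6%. CDKN1A moved with the lower sum of proliferation markers given above, and its edgeR adjusted p was 0.0898 to 0.145 when a library other than preconditioned replicate 1 was left out. NAMPT, the enzyme of the NAD salvage pathway and a target of CLOCK and BMAL1, had 108, 115 and 96.7 CPM in the fresh libraries and 78.1, 78.5 and 69.2 CPM in the preconditioned libraries, with no overlap (log2 fold change −0.50, standard error 0.11, edgeR adjusted p = 0.0505). NAMPT passed on the adjusted p in 5 of 14 alternatives, with DESeq2 (0.0114), library size alone (0.0302), limma on FPKM (0.0371 and 0.0363) and without preconditioned replicate 1 (0.0232). In the last of these fits 25.2% of all tested genes passed on the adjusted p. KLF9 and TSPAN4 had log2 fold changes of 0.67 and 0.52 (edgeR adjusted p = 0.343 and 0.178), and that of KLF9 was 0.39 without preconditioned replicate 2 and 0.25 on log2(FPKM + 1). For TSPAN4 the value was 0.29 to 0.73 over the 14 alternatives. The row for TSPAN4 shares its description with another row, and reads could have been split between them.

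PER1 is induced directly by glucocorticoids and by cAMP, and 9 genes that answer to these signals were tested beside it. SGK1, a kinase induced by glucocorticoids, fell from 67.7, 52.1 and 63.0 CPM in the fresh libraries to 22.5, 18.8 and 12.5 CPM in the preconditioned libraries (log2 fold change −1.76, standard error 0.23, edgeR adjusted p = 0.0231). DUSP1, a phosphatase of MAP kinases induced by glucocorticoids and by stress, passed on the adjusted p and rose from 156, 141 and 197 CPM to 244, 316 and 330.1 CPM (log2 fold change 0.85, standard error 0.17, edgeR adjusted p = 0.0441). For ZBTB16, a glucocorticoid-induced repressor, the log2 fold change was 1.1 (standard error 1.02, edgeR adjusted p = 0.492), and for NR4A1, a cAMP-induced receptor, it was 1.79 (standard error 0.89, edgeR adjusted p = 0.22), both at a few CPM and with overlapping groups. Without preconditioned replicate 2 these values were −0.19 for ZBTB16 and 0.58 for NR4A1. Of the 9 genes only SGK1 passed both cutoffs, against 2.29% of all tested genes. SGK1, DUSP1 and TSC22D3 had unadjusted p values up to 0.05 by edgeR, 3 of 9 against 30.6%. TSC22D3, also induced by glucocorticoids, was lower without overlap (log2 fold change −0.47, standard error 0.16, edgeR adjusted p = 0.105). FKBP5, another such gene, had overlapping groups (log2 fold change 0.33, standard error 0.36, edgeR adjusted p = 0.561). For SGK1, the adjusted p was above 0.05 without each of fresh replicates 1, 2 and 3 and preconditioned replicate 2, with 0.107 as the highest. For DUSP1 it was 0.0796 to 0.156 when a library other than preconditioned replicate 1 was left out, and 0.0502 with library size alone.

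The genes whose profile was most like that of NR1D1, by Pearson's r of log2 CPM over the 6 libraries, were LOC127490992 (uncharacterized), LOC100359171 (described as 60S ribosomal protein L18a), FBXL17, VPS28 and LOC100009537 (described as sterol O-acyltransferase 1), with r of 0.9967 to 0.9985. In all, 412 of 15029 tested genes had r of at least 0.95 with NR1D1. The libraries form 2 groups, so that such values mostly record a shared difference between the groups, and no other clock gene was among the 5.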

How the data were processed

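RNA-seq was performed by the authors on polyA RNA of 6 libraries, 3 per group. Reads were aligned with hisat2 and counted per gene with htseq-count, and the authors deposited the counts without normalization. The deposited FPKM values can be rebuilt from those counts with 1 length per gene and the library totals. The genome build, annotation and strand setting are not given in the sources used here. Genes were matched by symbol, or by NCBI identifier through a RefSeq table of assembly mOryCun1.1, whose coordinates were not used for the values.

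Differential expression was tested with edgeR 4.0.16 in R 4.3.3 (filterByExpr, TMM factors of 0.914 to 1.07, robust quasi-likelihood test, condition as the only factor). Standard errors were derived from the F statistic, with log2 CPM at a prior count of 2 for profiles. At 31952352 to 34327534 counts per library, precision was set by the 3 libraries per group. On simulated counts of 14818 genes, edgeR recovered 144 of 200 changed genes and called 10 unchanged genes. Recovery of genes with the levels and fold changes of the clock genes was not tested. Alternatives were DESeq2 1.42.0, its size factors, library size alone, other filters, limma 3.58.1 on log2(FPKM + 1) and log2(FPKM + 0.1), the replicate number as a block, no fold change cutoff, and leaving out each library.

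All 10 clock genes and all other core clock genes reported are named. From the 3 further lists, genes that were called and the 4 with the largest absolute log2 fold change are named, with TSC22D3 and FKBP5 added from the inputs to PER1. The profile comparison used the member with the largest absolute log2 fold change. The members and lists were chosen with earlier results of these data known. A gene planned for the list of clock targets and a gene planned for the list of other core clock genes are not reported here, and those lists are counted without them.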

Additional observations from a re-analysis of the deposited data

How the results depend on the processing

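The number of called clock genes, 2 of 9 tested, was also 2 with DESeq2, its size factors, library size alone, both other filters and log2(FPKM + 0.1). It was 1 with log2(FPKM + 1), where DBP had a log2 fold change of 0.996, 0 with a block for the replicate number, and between 0 and 2 on leaving out single libraries. In that block fit the edgeR adjusted p was 0.0653 for NR1D1, 0.0815 for DBP, 0.104 for NR1D2 and 0.112 for RORA. The sources used here do not say whether the replicate number marks a shared animal or day. No shared deviation was seen between libraries with the same number (r of −0.0668, −0.0726 and −0.109 across genes), and no library correlated best with its own number. The log2 fold change of NR1D1 was 1.09 to 1.6 and that of DBP 0.996 to 1.39 over all 14 alternatives. The direction held in all 14 for NR1D1, NR1D2, DBP, PER1, PER2, CRY1, CRY2, BMAL1, NPAS2, RORA, BHLHE40, BHLHE41, CIART and NFIL3.

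With library size alone the median of all tested genes shifted to −0.16. The log2 fold change then was −0.046 for CLOCK and −0.11 for BMAL2. With log2(FPKM + 1) it was −0.043 for CLOCK and −0.11 for BMAL2, and with log2(FPKM + 0.1) −0.048 and −0.12. When each library was left out, the sign also changed for TEF (−0.11 to 0.15), BMAL2 (−0.12 to 0.23), HLF (−0.63 to 0.051), ZBTB16 (−0.19 to 1.84) and the difference in the ratio of CRY1 to CRY2 (−0.13 to 0.21). The cause was not tested.

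Without a fold change cutoff, 1 other core clock gene, 1 turnover gene and 2 inputs were called. Called clock targets were 0 with library size alone, with the block and with both FPKM fits, and 0 to 1 when each library was left out. The log2 fold change of CDKN1A was 0.94 to 1.35 over the 14 alternatives, and it passed on the adjusted p in 8 of them and both cutoffs in 5. Called inputs were 0 with the block and 0 to 1 when each library was left out. Among all tested genes, 344 were called (163 higher, 181 lower), against 1190 with DESeq2, 565 with library size alone (142 higher, 423 lower), 30 with the block, 590 with log2(FPKM + 0.1) (141 higher, 449 lower), 763 without a fold change cutoff, and 14 to 1546 when each library was left out, the highest without preconditioned replicate 1.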
